A study of Mus musculus with 7 samples.

Results

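Peaks of the transcription factors LEF1 and TCF1 were examined around the genes of the interferon and IL-10 receptor chains in naive mouse CD8 T cells. The 6 genes are Ifnar1 and Ifnar2 (type I interferon receptor), Ifngr1 and Ifngr2 (interferon gamma receptor), and Il10ra and Il10rb (IL-10 receptor). For each gene the peak intervals were taken that touched its body or the 20 kb to either side, with positions from RefSeq on GRCm38.p6, and this stretch is called its window. The gene bodies are Ifnar2 at chr16:91372783-91405589, Il10rb at chr16:91406157-91425834, Ifnar1 at chr16:91485032-91510523, Ifngr2 at chr16:91547059-91564007, Ifngr1 at chr10:19591949-19610229 and Il10ra at chr9:45253837-45269149. The windows held 217 peak intervals of 148963 in the 6 lists together. Overlapping intervals were joined into regions, which gave 56 regions in the windows of 38231 in all. A factor is said to hold a region where 2 or 3 of its 3 libraries show a peak.

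The assay was CUT&RUN, which releases the DNA around a protein with a nuclease tethered to an antibody. There were 3 libraries with an antibody to LEF1 (gene Lef1) and 3 with an antibody to TCF1 (gene Tcf7), and all came from spleen CD8 T cells sorted as Ly5.1+, CD44- and CD62L+, the surface profile of cells that have not met antigen. Every library came from TCR-P14 transgenic cells, whose T cell receptor recognises a peptide of a mouse virus, with the genotype otherwise given as WT. The labelled input control was sorted as CD44+ and Ly5.1-, so from other cells, and was not analysed here. Without a list from an unspecific antibody, bound sites and open DNA cannot be told apart. Whether each replicate was a separate animal is not said in the labels, so the p-values cover only the spread between these libraries, and this may be technical.

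Class II cytokine receptors work in pairs: a chain that binds the ligand, here Ifnar2, Ifngr1 and Il10ra, and an accessory chain, here Ifnar1, Ifngr2 and Il10rb. The ligand-binding chains are served by the kinase JAK1 and the accessory chains by TYK2 or JAK2, which phosphorylate STAT transcription factors. In T cells these receptors shape the response to infection, and IL-10 signalling restrains it. Il10rb is also a chain of other receptors, among them the one for IL-22. In the mouse, Ifnar2, Il10rb, Ifnar1 and Ifngr2 stand in a row on chromosome 16, while Ifngr1 is on chromosome 10 and Il10ra on chromosome 9.

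The lists held 27666, 37646 and 23704 intervals in LEF1 replicates 1 to 3, and 25623, 22901 and 11423 in TCF1 replicates 1 to 3. LEF1 replicate 2 thus had the longest list and TCF1 replicate 3 the shortest. The lists hold no read totals, so the number of reads behind a peak is unknown. Of the markers of naive CD8 T cells, 6 of 6 genes had a region found in all 6 libraries, among them Cd8a and Ccr7, where 40.1% of all 21887 protein-coding genes had one. Among marker genes of other cells, such a region was present at 2 of 5 B cell genes, 2 of 5 myeloid genes and 2 of 4 erythroid genes. Peaks are not expression, so this only shows which genes had them, and binding in all cells or in some of them cannot be told apart.

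The sequences shown here are the 250 bases before the 3 start sites in these loci at which every library had a peak. They are from RefSeq (GRCm38.p6, plus strand): Ifnar1 at chr16:91484965-91485214, Ifngr1 at chr10:19591699-19591948, and A930006K02Rik, a long non-coding RNA gene between Il10rb and Ifnar1, at chr16:91464854-91465103. For Ifnar1 and A930006K02Rik, capitals mark the letters CTTTGA, of the type TCF and LEF proteins bind, and CCGGAAG, of the type ETS proteins bind, on either strand. For Ifngr1, which held neither, capitals mark the 11 bases centred on the summit, the point of highest signal in a peak.
Ifnar1: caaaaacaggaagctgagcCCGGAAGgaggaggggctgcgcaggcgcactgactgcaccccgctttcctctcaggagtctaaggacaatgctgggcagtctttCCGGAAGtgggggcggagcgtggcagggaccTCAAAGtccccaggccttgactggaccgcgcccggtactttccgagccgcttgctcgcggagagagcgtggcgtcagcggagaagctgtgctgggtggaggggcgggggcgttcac
Ifngr1: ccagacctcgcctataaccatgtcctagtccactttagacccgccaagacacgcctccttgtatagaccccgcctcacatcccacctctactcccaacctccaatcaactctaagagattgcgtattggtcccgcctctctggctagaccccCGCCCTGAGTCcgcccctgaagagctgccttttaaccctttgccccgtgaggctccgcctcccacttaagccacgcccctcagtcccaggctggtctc
A930006K02Rik: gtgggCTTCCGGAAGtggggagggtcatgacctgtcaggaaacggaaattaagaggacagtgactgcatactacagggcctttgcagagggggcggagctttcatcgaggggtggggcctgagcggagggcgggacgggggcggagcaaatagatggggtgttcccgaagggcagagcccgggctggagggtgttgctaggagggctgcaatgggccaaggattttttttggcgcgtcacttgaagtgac

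In the Ifnar1 sequence the letters CTTTGA (read as TCAAAG on this strand) span 116 to 111 bases before the start, and CCGGAAG occurs from 231 and from 147 bases before it. The summits lay 123, 123 and 105 bases before the start in LEF1 replicates 1 to 3 and 105, 123 and 120 bases before it in TCF1 replicates 1 to 3, so on both sides of the TCAAAG. The Ifnar1 start counted from here, chr16:91485215, lies inside the gene body given above, which begins at chr16:91485032. These summits thus lay before that start but within the body. Over all 32851 promoters in the table, CTTTGA was found in 13.8% of the same stretches, another motif of the TCF and LEF type, CTTTGTT, in 5.03% and CCGGAAG in 6.91%. Among the 3936 promoters touched by a peak in every library, the shares were 13.1%, 3.30% and 16.7%. In the A930006K02Rik sequence CCGGAAG was present on both strands, in copies that overlap, starting 245 and 242 bases before the start. CTTTGTT was absent from the stretches of Ifnar1, Ifngr1, A930006K02Rik, Ifnar2 and Ifngr2, and Ifnar2 and Ifngr2 held none of the 3 motifs. A match in the letters is a description and does not show a bound site.

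Peaks were found at all 6 genes, and each had more held regions than the median gene. At least 1 region held by either factor was present at 6 of 6, where 59.9% of all genes had one. Regions held by either factor numbered 8 at Ifnar1, 3 at Ifnar2, 10 at Ifngr1, 7 at Ifngr2, 7 at Il10ra and 5 at Il10rb. The median was 7 over the 6 genes and 1 over all protein-coding genes. At least as many regions as Ifngr1 were present at 1.88% of genes, as Ifnar1 at 3.61%, as Ifngr2 and Il10ra at 5.28%, as Il10rb at 10.9% and as Ifnar2 at 26.1%. Set per 10 kb of window, the genes ran from 0.412 at Ifnar2 to 1.72 at Ifngr1, against a median of 0.151 over all genes. Each of the 6 had a region held by LEF1, a region held by TCF1 and a region found in all 6 libraries, where 58.6%, 56.1% and 40.1% of all genes had these. The bodies of Ifnar2, Il10rb and Il10ra had no region of all 6 libraries. The only such region of the Il10rb window lay across its edge, and that of the Il10ra window inside the neighbouring gene BC049352. These comparisons are not matched on expression or open DNA, and 4 of the 6 genes are neighbours whose windows share regions.

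**Figure D1:**
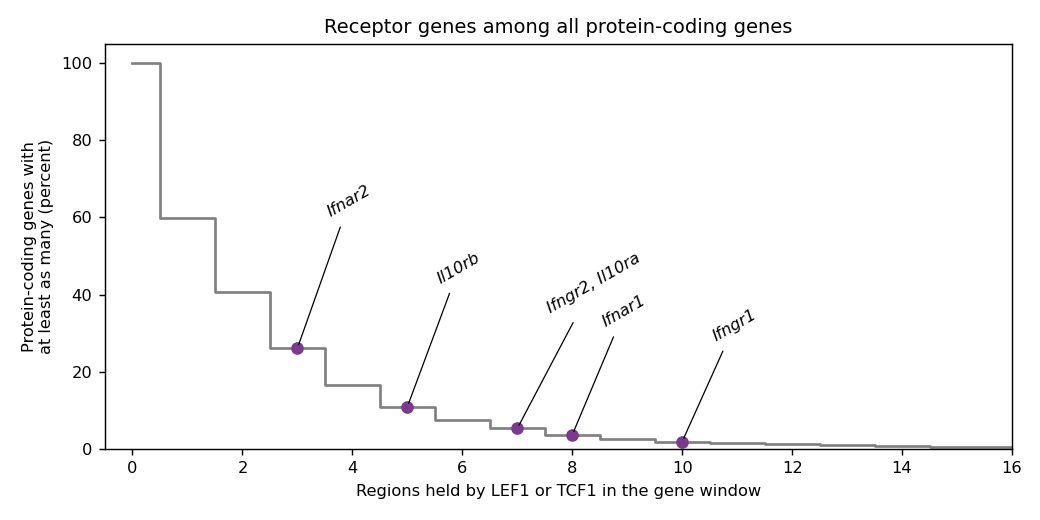
The line gives the percent of 21887 protein-coding genes (y axis) whose window holds at least the number of regions on the x axis, counting regions held by LEF1 or TCF1, and the points mark the receptor genes. Ifnar2 with 3 regions lies at 26.1% and Ifngr1 with 10 at 1.88%.

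Between the factors, LEF1 libraries had more intervals at the 6 genes on average, as they did in the whole lists, and the groups overlapped. The union of the windows held 39, 58 and 34 intervals in LEF1 replicates 1 to 3, against 38, 32 and 16 in TCF1 replicates 1 to 3. LEF1 libraries averaged 43.7 ± 12.7 and TCF1 libraries 28.7 ± 11.4 (SD, n = 3 each), a difference of 15.0. It did not pass the two-sided exact permutation test (p = 0.2), in which 3 against 3 libraries cannot go below 0.1. Leaving out LEF1 replicate 2 gave 7.83, and leaving out TCF1 replicate 3 gave 8.67, these being the libraries with the longest and the shortest list. As a share of each list the counts nearly coincided, at 14.1, 15.4 and 14.3 per 10000 intervals for LEF1 and 14.8, 13.97 and 14.01 for TCF1. That difference of 0.346 per 10000 was smaller than the SD of either group (0.696 for LEF1 and 0.486 for TCF1, exact permutation test, two-sided, p = 0.5). With lists of equal size it was 2.33, at 17.8 per 10000 for LEF1 and 15.5 for TCF1 (exact permutation test, two-sided, p = 0.2). Intervals in the windows had a median rank percentile by fold enrichment of 46.1 ± 7.30 for LEF1 and 40.8 ± 4.24 for TCF1 (SD, n = 3 each, exact permutation test, two-sided, p = 0.4), where low values are the strongest peaks of a list.

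Gene by gene the picture was the same. At Ifngr1 the libraries had 10, 14 and 9 intervals for LEF1 and 10, 9 and 5 for TCF1. Ifnar1 had 8, 13 and 7 for LEF1 and 7, 5 and 4 for TCF1. At Il10ra there were 7, 9 and 4 for LEF1 and 5, 4 and 1 for TCF1. LEF1 replicate 2 was the highest and TCF1 replicate 3 the lowest library at each of these, and the ranges of the factors overlapped. Ifngr2 had 7, 9 and 7 intervals for LEF1 and 7, 6 and 4 for TCF1, touching at 7. The other ranges were 3 to 8 for LEF1 and 1 to 4 for TCF1 at Ifnar2, and 5 to 9 for LEF1 and 1 to 6 for TCF1 at Il10rb. None of the 6 genes had counts that did not overlap, where 4.41% of all genes were higher in every LEF1 library than in any TCF1 library and 0.0137% the other way round.

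**Figure D2:**
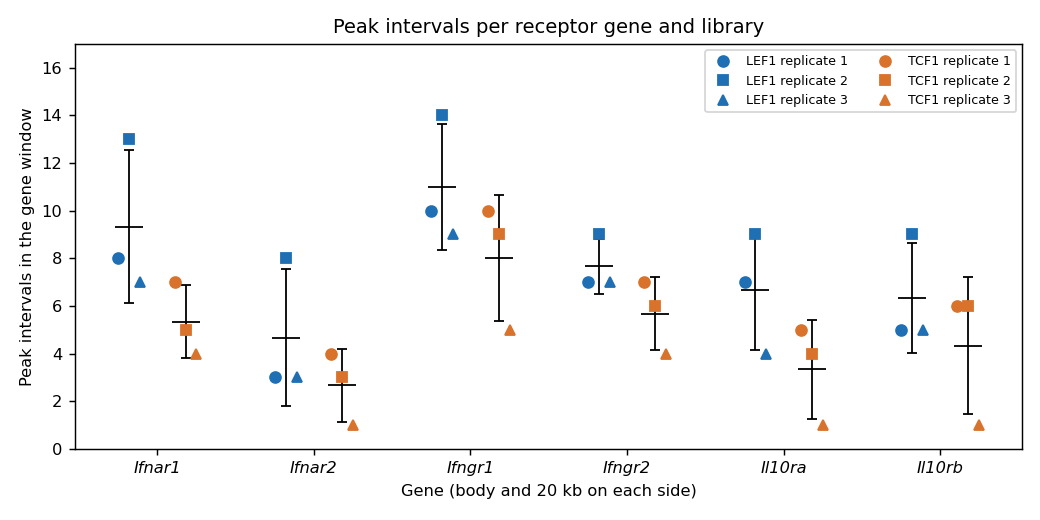
Points are peak intervals per gene window in each library (LEF1 blue, TCF1 orange, shapes for replicates 1 to 3), and horizontal bars are the mean with the SD of 3 libraries. The counts of the factors overlap at all 6 genes, with LEF1 replicate 2 highest and TCF1 replicate 3 lowest.

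All regions held by TCF1 at these genes were also held by LEF1. LEF1 held 39 of the 56 regions and TCF1 29, and the 29 shared ones made up 74.4% of the LEF1 regions and 100% of the TCF1 regions, against 74.7% and 96.5% over all regions. The remaining 10 of the 39 regions held by either factor were held by LEF1 alone, where 24.6% of all regions held by either factor were of this kind. In all 6 libraries 16 regions were found (28.6%, against 28.5%), and 13 more were missing from TCF1 replicate 3 alone (23.2%, against 21.4%). LEF1 replicate 2 was the only library with a peak at 16 regions (28.6%, against 20.8%). The sharing at the receptor genes was thus close to that of the whole lists.

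The chromosome 16 cluster, from 20 kb before Ifnar2 to 20 kb past Ifngr2 (chr16:91352783-91584007, 231 kb), held 41 regions as one locus. LEF1 held 29 of them, TCF1 22 and both 22, and 13 were found in all 6 libraries. Of the 41, 8 lay in the 19.2 kb between the windows of Il10rb and Ifnar1, outside both, and 7 of these were held. The libraries had 29, 44 and 25 intervals in the locus for LEF1 and 30, 24 and 13 for TCF1, again overlapping between the factors (exact permutation test, two-sided, p = 0.4).

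Regions of the cluster were unevenly placed. The 59.2 kb between Il10rb and Ifnar1 held 14 regions of either factor, or 2.36 per 10 kb, and the 36.5 kb between Ifnar1 and Ifngr2 held 6, or 1.64 per 10 kb. Inside the genes there was 1 in the 32.8 kb of Ifnar2, 1 in Il10rb, and 3 each in Ifnar1 and Ifngr2. Of the 29 held regions of the cluster 8 touched a protein-coding gene (27.6%), against 65.7% of all held regions. The locus was drawn to include the flanks and gaps between genes, which bears on this share. Over the windows of all 6 genes it was 48.7%, with 50% at Ifngr1 and 85.7% at Il10ra. The widest stretch between held regions, 38.7 kb (chr16:91374519-91413226), covered most of Ifnar2, its far end and the near end of Il10rb, and had 3 peaks, all of LEF1 replicate 2. No region was found in the last 29.8 kb, which include the end of Ifngr2 and part of its neighbour Tmem50b.

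**Figure D3:**
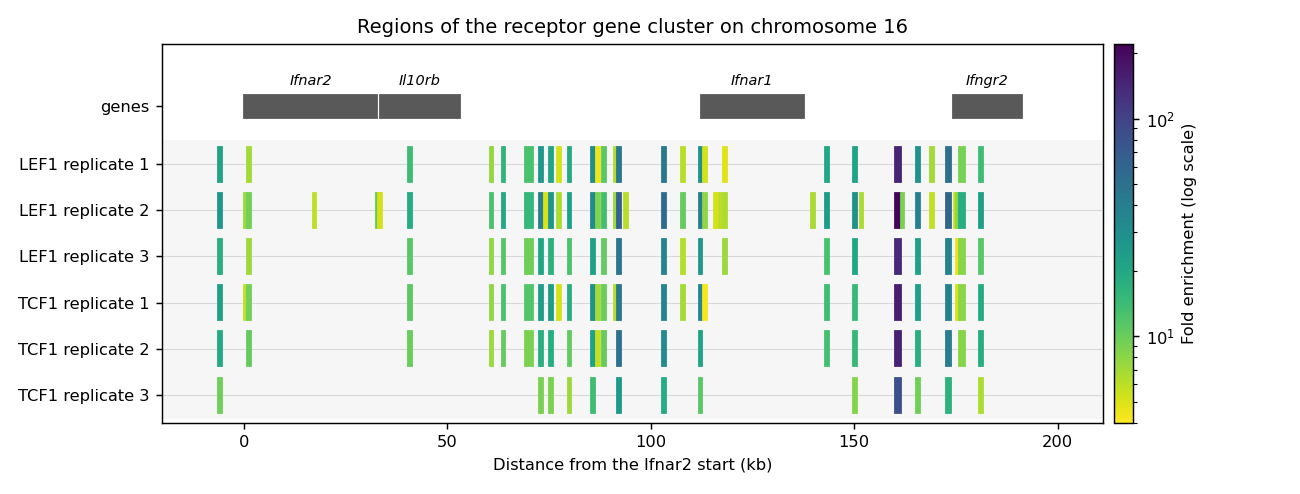
Each row is a library and each box a region in which it had a peak, placed by its distance in kb from the Ifnar2 start and coloured by the fold enrichment of its strongest interval there (log scale), with gene bodies in grey. Boxes crowd between Il10rb and Ifnar1, and the darkest stands between Ifnar1 and Ifngr2 in all 6 rows.

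At the type I interferon receptor genes the ligand-binding chain and the accessory chain differed in what was found at their starts. At Ifnar1, the accessory chain, the region at the start (chr16:91484732-91485310) was in all 6 lists. Its fold enrichment, the authors' ratio of summit signal to local background, was 29.2, 39.5 and 25.9 in LEF1 replicates 1 to 3 and 34.4, 21.1 and 11.3 in TCF1 replicates 1 to 3. The lowest value was that of TCF1 replicate 3, as at each of the 19 regions found in every library. At Ifnar2, the ligand-binding chain, no library had a peak on the 300 bases around the start. The nearest interval edge was 1210, 350 and 1271 bases away in LEF1 replicates 1 to 3 and 350, 1245 and 5876 bases away in TCF1 replicates 1 to 3. A peak on the promoter stretch in all 6 libraries was found for 17.7% of 17492 protein-coding genes.

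Upstream of Ifnar1 a pair of stronger regions stood in all 6 lists. The first, 9.05 kb before the gene (chr16:91475691-91476429), had a fold enrichment of 43.1, 55.0 and 36.1 for LEF1 and 36.3, 32.9 and 18.8 for TCF1. Its summit was the same base in all 6 libraries. The second, 20.1 kb before the gene (chr16:91464606-91465217), lies on the start of A930006K02Rik and had 44.6, 63.2 and 46.4 for LEF1 and 44.8, 49.3 and 25.5 for TCF1. Farther on, 12.1 kb past the other end of Ifnar1 (chr16:91522411-91523383), a region had 21.2, 29.3 and 20.3 for LEF1 and 14.8, 15.1 and 8.38 for TCF1. Inside Ifnar1, 6.10 kb from its lower-coordinate end (chr16:91490931-91491289), a region had weak peaks of 4.83, 6.52 and 7.27 in LEF1 replicates 1 to 3 and none in TCF1 libraries. It was the 1 region of the 56 with a peak in every LEF1 list and no TCF1 list, a pattern that 3.14% of all regions had.

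Ifnar2 had its strongest region 6.01 kb before its start (chr16:91366500-91367368), inside the long non-coding RNA gene Gm36587. The fold enrichment there was 21.1, 26.7 and 17.5 for LEF1 and 22.5, 19.5 and 9.63 for TCF1, with a peak in every library. A weaker region 1.34 kb inside the gene (chr16:91373702-91374518) had 6.95, 9.34 and 7.22 for LEF1 and 9.37 and 10.4 for TCF1 replicates 1 and 2, and was missing from TCF1 replicate 3.

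At the interferon gamma receptor genes stood the strongest regions of the set. Ifngr2, the accessory chain, had the strongest, 13.2 kb before its start (chr16:91532863-91534413). It had a fold enrichment of 148, 209 and 136 in LEF1 replicates 1 to 3 and 156, 152 and 83.8 in TCF1 replicates 1 to 3, and its summit was the same base in all 6. Ranked among the 10890 regions common to all 6 libraries, it was number 13, 9 and 12 for LEF1 and 12, 7 and 6 for TCF1. Next to it, 8.81 kb before the gene (chr16:91537941-91538997), a region had 29.4, 39.1 and 22.2 for LEF1 and 23.5, 17.8 and 9.51 for TCF1.

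The start of Ifngr2 itself was not covered in any library. A region of all 6 libraries (chr16:91545393-91546703) ended short of it, with fold enrichments of 51.5, 60.8 and 37.0 for LEF1 and 38.6, 40.8 and 16.8 for TCF1. Its nearest edge was 414, 356 and 414 bases from the start in LEF1 replicates 1 to 3 and 403, 420 and 705 bases in TCF1 replicates 1 to 3. Inside the gene, 6.81 kb from the start (chr16:91553645-91554187), a region had 13.8, 23.4 and 11.4 for LEF1 and 19, 18.03 and 6.53 for TCF1.

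Ifngr1, the ligand-binding chain, had the most regions of the 6 genes, and its start lay in a peak of every library (chr10:19591515-19593227). The fold enrichment was 47.2, 65.6 and 44.4 for LEF1 and 50.1, 47.4 and 24.2 for TCF1. All 6 summits fell on the same base, 93 bases before the start, in the stretch marked in its sequence. The strongest Ifngr1 region stood 13.6 kb before the start (chr10:19577537-19578970), with 89.5, 78.6 and 84.2 for LEF1 and 66.4, 58.3 and 33.5 for TCF1. Among the common regions it ranked 164, 731 and 129 for LEF1 and 502, 521 and 416 for TCF1. LEF1 replicate 2 thus stood on the other side of the TCF1 libraries from the other LEF1 libraries. Its summit was on the same base as those of the TCF1 libraries (19578374), while LEF1 replicates 1 and 3 had theirs at 19578210 and 19578216. These ranks therefore compare different points of the region. Nearer the gene, 9.55 kb before the start (chr10:19582200-19583467), a region had 35.8, 46.8 and 29.3 for LEF1 and 36.4, 32.0 and 16.7 for TCF1.

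Weaker Ifngr1 regions stood before the gene, inside it and beyond it. The weakest one found in all 6 lists, 7.72 kb before the start (chr10:19583973-19584545), had 9.67, 22.9 and 8.84 for LEF1 and 9.38, 9.41 and 5.30 for TCF1, with LEF1 replicate 2 above the other libraries. There were 3 inside the gene, 2.82, 5.29 and 6.29 kb from the start, that had peaks in 5 libraries and none in TCF1 replicate 3. A region 2.10 kb from Il22ra2 (chr10:19619705-19620353), the gene of a soluble IL-22 binding protein, was in all 6 lists, with 21.8, 41.1 and 20.3 for LEF1 and 26.3, 22.5 and 9.76 for TCF1. It lies in the windows of both genes.

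**Figure D4:**
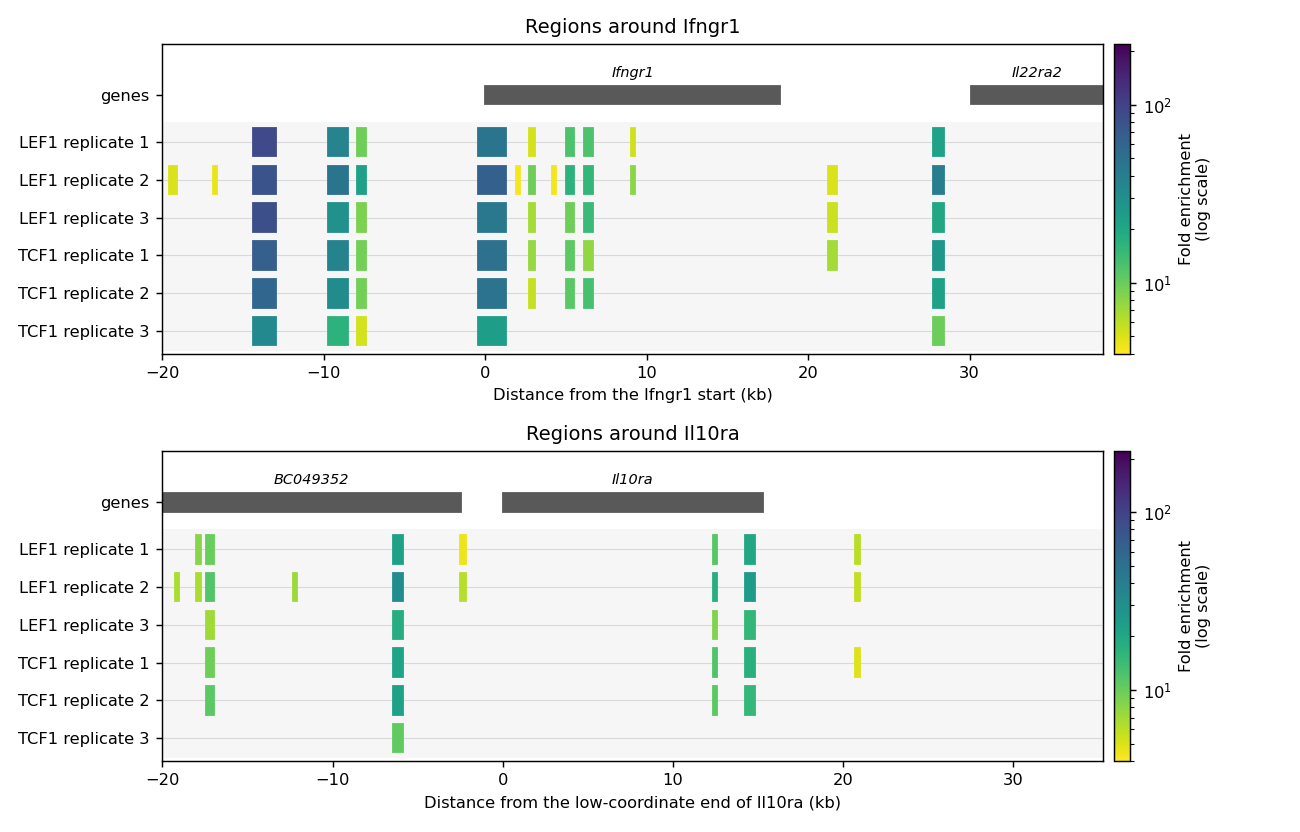
The rows and colours are those of the chromosome 16 map, for Ifngr1 (top, distance in kb from its start) and Il10ra (bottom, distance in kb from its end with the lower coordinate), with neighbouring genes in grey. At Ifngr1 the regions 13.6 kb before the start and at the start are the darkest in every row, while at Il10ra TCF1 replicate 3 has a single box.

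The IL-10 receptor genes had no region as strong as the best ones at the interferon gamma receptor genes. Of the 7 held at Il10ra, the ligand-binding chain, 1 was in all 6 lists, inside the neighbouring gene BC049352 and 3.64 kb from that gene's end (chr9:45247420-45247988). Its fold enrichment was 22.2, 31.4 and 18.1 for LEF1 and 21.05, 22.2 and 10.7 for TCF1. Within the gene, 808 bases from its higher-coordinate end (chr9:45268084-45268683), a region had 20.2, 24.5 and 15.6 for LEF1 and 17.2 and 15.3 for TCF1 replicates 1 and 2. Another, 2.82 kb from that end, had 11.6, 17.96 and 8.54 for LEF1 and 12.1 and 10.9 for TCF1 replicates 1 and 2. Neither was in the list of TCF1 replicate 3, and 3 further regions at Il10ra were held by LEF1 and not by TCF1. Those at chr9:45235836-45236076 and chr9:45251358-45251667 touched BC049352, as did a region of both factors at chr9:45236410-45236886. Only 2 of the 7 held regions lay in the body of Il10ra itself.

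Il10rb, the accessory chain, had 1 held region inside the gene, 7.30 kb from its lower-coordinate end (chr16:91413227-91413834). The fold enrichment was 13.8, 18.6 and 11.4 for LEF1 and 11.1 and 10.05 for TCF1 replicates 1 and 2, with no peak in TCF1 replicate 3. The other 4 held regions of its window lay past its other end, 7.82, 10.8, 17.7 and 20.0 kb away. The last of these (chr16:91445508-91446085) was in all 6 lists, with 26.5, 38.9 and 20.5 for LEF1 and 23.2, 17.5 and 8.97 for TCF1. Near the lower-coordinate end itself, LEF1 replicate 2 alone had peaks.

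With the lowest fold enrichment always in TCF1 replicate 3, the regions found in every library were also ranked among the 10890 regions common to all 6 lists. Of the 19 such regions in the windows and the chromosome 16 locus, 3 ranked higher in every LEF1 library than in any TCF1 library and 2 the other way round. Over all common regions these shares were 17.4% and 17.5%. The 3 were the regions 12.1 kb past Ifnar1, 8.81 kb before Ifngr2 and 20.0 kb past Il10rb. The first ranked 5500, 5559 and 4659 for LEF1 and 8151, 7248 and 6703 for TCF1, the widest gap of the 3. Its outermost summits were 554 bp apart, with TCF1 replicates 2 and 3 away from the other libraries. The ranks there thus compare different parts of the region. The region past Il10rb ranked 3990, 3581 and 4596 for LEF1 and 4736, 6105 and 6128 for TCF1. Its summits also lay apart by factor, at 91445741 to 91445765 for LEF1 and 91445836 to 91445842 for TCF1, so these ranks compare different points too. The 2 with higher TCF1 ranks were those 6.01 kb before Ifnar2 and 9.55 kb before Ifngr1. The Ifngr1 region ranked 2264, 2553 and 2506 for LEF1 and 2131, 2227 and 2137 for TCF1.

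**Figure D5:**
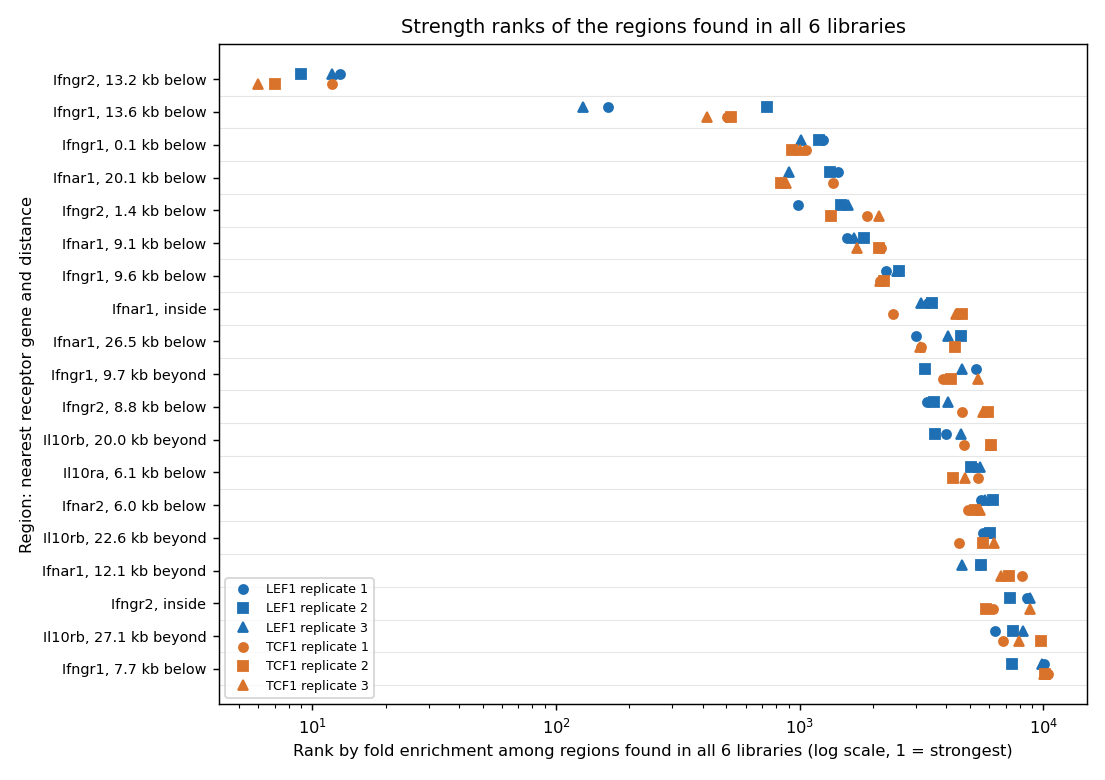
Points give the rank by fold enrichment of each region among the 10890 regions common to all 6 libraries (log scale, 1 is the strongest), for LEF1 (blue) and TCF1 (orange) libraries, with regions named by the nearest receptor gene and the distance of the summit below its lower or beyond its higher coordinate. The region 13.2 kb below Ifngr2 lies between 6 and 13, and no other comes before 129.

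Summit positions were close between libraries at many of these regions, as over all common regions, and farther apart at others. The distance between the outermost of the 6 summits was 26.5 bp in the median over the 16 common regions in the windows, with a range of 0 to 554 bp, against a median of 49 bp over all common regions. All 6 summits fell on the same base in 3 of the 16, where 2.08% of common regions did so, and within 50 bp in 10, where 50.9% did. The 3 are the regions before Ifngr2, before Ifnar1 and at the start of Ifngr1 named above. The widest spread, 554 bp, was at the region past Ifnar1, followed by 174 and 164 bp at those 7.72 and 13.6 kb before Ifngr1.

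Other genes of the pathway were read in the same way. Of the other class II receptor genes, 4 of 6 had a region held by LEF1 and the same number by TCF1, near the shares of all genes (58.6% for LEF1 and 56.1% for TCF1). Il22ra2 is among the 4, and its held regions also lie in the window of its neighbour Ifngr1. Il20rb had 6 regions held by either factor and Il20ra 4, while Il22ra1 and F3, the gene of tissue factor, had none. Of the ligands, Ifng had 4 and Il10 had 1, while Ifnb1 and Il22 had none. All 13 signalling genes had a region of each factor, against those same shares, with a median of 5 regions held by either. By count Jak1, which serves the ligand-binding chains, led with 22, followed by Ptpn6, a phosphatase that restrains cytokine receptors, with 10. Jak1 is a long gene, and per 10 kb of window it had 1.44, against 1.72 at Ptpn6 and 1.44 at Socs1. Tyk2 and Jak2, the kinases of the accessory chains, had 6 and 5 regions, and Socs1, a feedback inhibitor, had 6. Stat2 had 2, and Ptpn2 had the fewest with 1. Jak1 was the 1 gene of these 13 whose interval counts did not overlap between the factors, at 23, 31 and 20 for LEF1 and 17, 19 and 12 for TCF1, where 4.41% of all genes were higher in every LEF1 library. Among the 6 naive CD8 T cell markers, 5 had such counts.

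The genes most like each receptor gene were sought by the rank percentile of the best peak in the window, compared over the 6 libraries on a log10 scale among 8785 genes. For Ifngr2 these were Dgka and Pym1, neighbours that share their best peak, at a distance of 0.242, and for Ifngr1 they were Sstr3 (0.457) and Tmem143 (0.491). For Ifnar1 they were Tom1l2 and Drc3 (0.123 each), for Il10ra Atp6v0a1 (0.0417) and Pou5f1 (0.0497), for Il10rb Nhp2 and Rmnd5b (0.0901 each), and for Ifnar2 Copg1 and Hmces (0.0720 each). The best peak of Ifngr2 stood in the first 0.0525% of every list, and that of Ifngr1 in the first 3.64%.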

How the data were processed

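The submitters' processing notes name build GRCm38.p6, MACS3 3.0.3, Bowtie2 2.4.4, deepTools 3.5.1, Picard, Trim Galore 0.6.6 and FastQC 0.12.1. How the peak caller was set and against which control is not stated there. The deposited files are peak lists called per library, as the peak names carry the library. For each peak the authors deposited a fold enrichment (a ratio of summit signal to local background), −log10 p- and q-values, a score made from the −log10 q, and a summit offset. They were used only to rank, filter and describe peaks within a list. Every deposited list ended near a −log10 q of 2, at 2.00 to 2.06.

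Autosomal (1 to 19), X and Y peaks were read with Python 3.11.15, pandas 2.3.3 and numpy 2.4.6, and coordinates are 1-based. No interval was listed more than once. Groups and replicate numbers came from the sample titles. Regions are merged intervals (overlap of at least 1 bp). The test between factors was an exact permutation test, with 20 possible assignments of libraries. Gene positions came from a RefSeq table, and 4 of the 6 genes had an entry in its promoter sequences. All 43 other list genes were found. Strand was read from the promoter table, so for Il10ra and Il10rb ends are named by coordinate. No genome sequence was used, so peaks away from start sites were not searched for motifs, and no exon or intron is named. The code was tested on simulated lists with planted regions.

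The receptor genes, the lists and the named regions were chosen with earlier results of these data known. Described in full were the 16 regions found in all 6 libraries in the windows, with examples of the others. The ranks among common regions, the summit distances and the positions along the chromosome 16 locus were added after the lists had been seen. Other windows, equal list sizes, a stricter q, other rules for held regions, single libraries left out and pairing by replicate number were tried.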

Additional observations from a re-analysis of the deposited data

How the results depend on the processing

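The surplus of 15.0 intervals in LEF1 over TCF1 libraries was positive in all 13 alternatives. It did not pass the test in any, but with at most 3 libraries per factor p cannot go below 0.1. No alternative could therefore have passed at 0.05. Pairing by replicate number and counting every summit are among the 13, but they repeat the main count and could not change it. The surplus was 7.83 to 19.8 when single libraries were left out and 2.67 with equal list sizes. The difference per 10000 intervals (0.346) turned to -0.115 with 50 kb around the genes and -0.472 at a −log10 q of at least 5, was larger at 2.33 with equal list sizes and 1.09 in the gene bodies alone, and ranged from -0.0500 (without LEF1 replicate 2) to 0.626 without single libraries. The median rank percentile difference (5.31) turned to -3.48 with equal list sizes and -2.96 at the stricter q, and was 1.10 to 7.52 without single libraries. The causes were not tested.

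Held regions numbered 15 (LEF1), 11 (TCF1) and 11 (both) in the gene bodies alone, a smaller stretch, and 20, 18 and 18 with equal list sizes, which are shorter lists. When all 3 libraries were required, TCF1 held 16 and both held 16, since TCF1 replicate 3 had to have the peak. Without single libraries the counts were 32 to 39 for LEF1, 16 to 30 for TCF1 and 16 to 30 for both, the 16 being those without TCF1 replicate 1 or 2, where the same library decides. Genes whose counts did not overlap were 1 with equal list sizes (Il10rb), and 0 to 2 without single libraries: Ifnar1 and Il10ra without LEF1 replicate 3, and Ifnar1 and Ifngr2 without TCF1 replicate 1.

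With the replicate block, paired by the numbers in the titles, the exact sign-flip p was 0.25 for the difference of 15.0 intervals, 0.75 for that of 0.346 per 10000 and 0.75 for that of 5.31 in rank percentile. With 3 pairs it cannot go below 0.25, and no call changed. A shared source of same-numbered libraries is not shown: their deviations correlated at -0.200, 0.389 and 0.638 over 21887 genes, not every library correlated best with its own number, and the library names number the replicates differently from the titles. The reads behind the short list of TCF1 replicate 3 are unknown, so a missing peak there is not shown to be absent.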
